A study of Mus musculus with 451 samples.

Results

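The Hox genes of tail tendon cells are described here. The members were all rows of the deposited count table whose symbol was Hoxa, Hoxb, Hoxc or Hoxd followed only by a number. There were 39 of them among 48795 symbols, 11 in the Hoxa cluster, 10 in the Hoxb cluster and 9 each in the Hoxc and Hoxd clusters. The rule went by symbol and used no measured value, but it was set with earlier results of these data known.

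The cells came from the tail tendons of C57BL/6 mice aged 4 weeks, either wild-type (WT) or lacking Mohawk homeobox (Mkx-/-), a transcription factor of the tendon lineage whose loss leads to ectopic bone in mouse tendons. Tendons were digested with collagenase, and single cells were captured in a high-throughput chip of the Fluidigm C1 system, which makes 1 cDNA library per cell. The 227 WT and 224 Mkx-/- cells held 13630536 and 14145394 reads, with medians of 51788 and 56121 reads per cell (ranges 13076 to 335813 and 14226 to 294791). The labels do not say which animal or chip a cell came from, and the knockout allele is not described in the sources used here. All cells of a genotype were therefore taken as 1 sample. No test between genotypes or cell states was possible, and the intervals given with values cover counting error only.

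Hox genes encode transcription factors that bind DNA through a homeodomain and tell cells where along the body axis they lie. In mammals they stand in 4 clusters, Hoxa to Hoxd, in which genes with the same number (paralogs) descend from 1 ancestral gene. The order of the genes along a cluster follows the order in which they are used from head to tail, so low numbers mark anterior and high numbers posterior positions. Connective tissue cells keep part of this pattern after birth, and Hox proteins choose their sites together with cofactors of the Pbx, Meis and Pknox families.

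The homeobox is the stretch of DNA that encodes the homeodomain. It is shown here for the genes that carried most of the Hox reads, the 4 members of paralog number 13 and the neighbours Hoxc9, Hoxc10 and Hoxc11, because the likeness of these sequences bears on how reads are told apart. Each homeobox was 180 bases long and lay within the last coding exon. The capitals mark the 18 bases that encode part of the recognition helix, which touches the DNA. Sequences and positions are from the GENCODE M1 transcripts on NCBIM37 (mm9), read 5′ to 3′ on the strand of the gene.
Hoxa13, chr6:52208927-52209106, minus strand: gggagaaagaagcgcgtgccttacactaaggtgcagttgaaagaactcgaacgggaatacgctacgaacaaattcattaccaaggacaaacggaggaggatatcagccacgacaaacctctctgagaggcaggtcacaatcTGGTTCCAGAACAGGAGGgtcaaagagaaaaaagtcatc
Hoxb13, chr11:96057334-96057513, plus strand: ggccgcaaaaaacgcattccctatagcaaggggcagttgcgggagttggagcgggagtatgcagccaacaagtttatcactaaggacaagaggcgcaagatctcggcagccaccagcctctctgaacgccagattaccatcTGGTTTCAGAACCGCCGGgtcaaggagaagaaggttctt
Hoxc13, chr15:102757641-102757820, plus strand: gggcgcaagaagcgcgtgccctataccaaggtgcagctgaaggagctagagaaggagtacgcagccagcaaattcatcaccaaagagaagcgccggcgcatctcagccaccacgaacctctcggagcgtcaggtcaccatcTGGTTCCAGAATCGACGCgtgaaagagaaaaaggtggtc
Hoxd13, chr2:74507987-74508166, plus strand: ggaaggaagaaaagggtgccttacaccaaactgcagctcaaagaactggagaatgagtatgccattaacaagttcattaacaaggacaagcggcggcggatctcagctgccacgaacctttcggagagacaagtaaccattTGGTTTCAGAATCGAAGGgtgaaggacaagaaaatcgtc
Hoxc9, chr15:102814361-102814540, plus strand: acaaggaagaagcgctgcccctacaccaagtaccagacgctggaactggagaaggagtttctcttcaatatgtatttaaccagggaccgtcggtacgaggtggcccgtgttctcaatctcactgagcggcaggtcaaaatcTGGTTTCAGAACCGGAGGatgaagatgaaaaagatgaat
Hoxc10, chr15:102801279-102801458, plus strand: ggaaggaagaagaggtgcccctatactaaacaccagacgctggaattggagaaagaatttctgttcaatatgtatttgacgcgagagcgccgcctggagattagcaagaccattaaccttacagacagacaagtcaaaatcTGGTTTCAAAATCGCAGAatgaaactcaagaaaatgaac
Hoxc11, chr15:102786911-102787090, plus strand: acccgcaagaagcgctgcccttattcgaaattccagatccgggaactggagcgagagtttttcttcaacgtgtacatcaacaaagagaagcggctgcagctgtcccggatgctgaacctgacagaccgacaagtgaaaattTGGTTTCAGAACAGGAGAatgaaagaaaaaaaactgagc

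The homeoboxes of number 13 differed at many positions. Hoxb13 and Hoxc13 shared 73.9% of their 180 bases, Hoxa13 and Hoxc13 77.2%, and Hoxb13 and Hoxd13 67.2%. Over all 39 members, the 42 pairs with the same number shared 67.2% to 93.9% of bases, and no pair had an identical stretch longer than 52 bases. The sources used here do not say what was done with a read that maps to more than 1 place.

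Hox reads were posterior. The 33 members with at least 1 read held 4266 reads together, 2117 in WT and 2149 in Mkx-/- cells. Paralog numbers 9 to 13 took 84.8% of the Hox reads of WT cells (83.2 to 86.3, exact 95% binomial interval) and 89% of those of Mkx-/- cells (87.6 to 90.3). Number 13 alone took 43.9% over both genotypes, numbers 4 to 8 took 11.9% and numbers 1 to 3 took 1.17%. All 8 members with at least 100 reads had a number of 9 or higher.

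The 4 clusters were read unequally. Hoxc members held 54.9% of the Hox reads, Hoxb members 31.1%, Hoxa members 11.3% and Hoxd members 2.74%. A Hoxc read was found in 50.1% of the 451 cells, a Hoxb read in 23.7%, a Hoxa read in 14.4% and a Hoxd read in 3.77%.

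**Figure D1:**
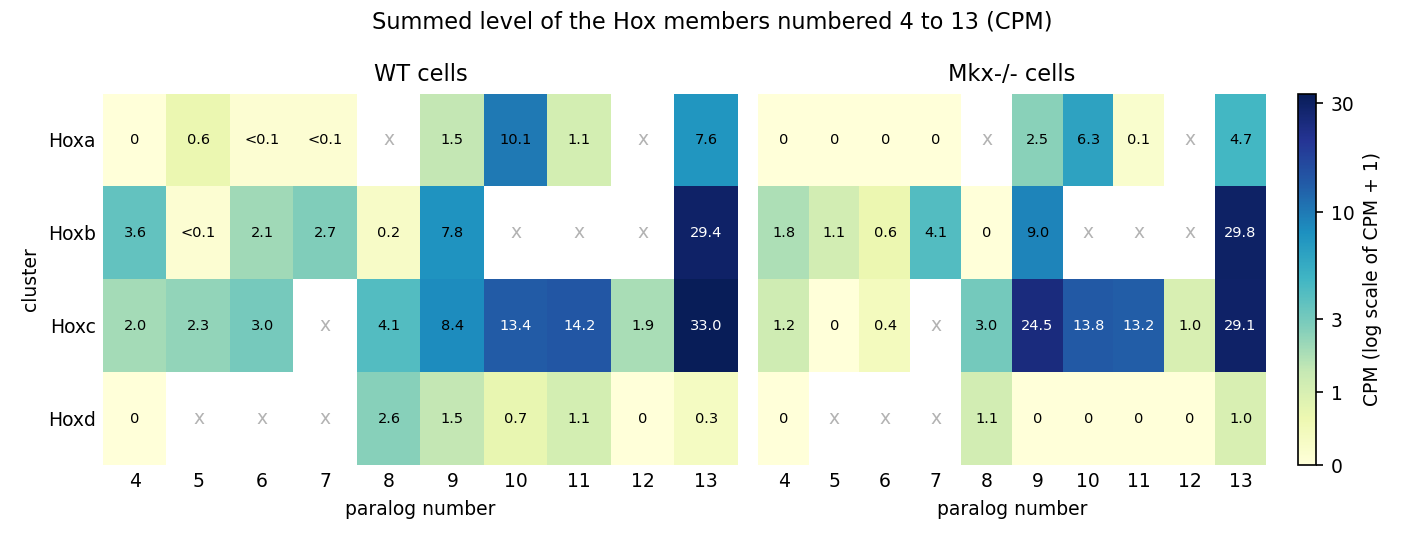
Summed level of the Hox members numbered 4 to 13 in CPM (reads of a gene in 1000000 reads of the cells), with cluster letter on the vertical and paralog number on the horizontal axis, for WT cells (left) and Mkx-/- cells (right). Colour follows the logarithm of CPM + 1, an x marks a number the cluster does not have, and the highest levels lie at numbers 9 to 13 of the Hoxb and Hoxc clusters, led by Hoxc13 at 33 CPM in WT cells.

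Levels of different genes were compared per kilobase of exon, over both genotypes. The Hoxc cluster rose in a step between numbers 8 and 9. Hoxc4, Hoxc5, Hoxc6 and Hoxc8 stood at 0.620, 0.394, 0.662 and 1.55 CPM per kb. Hoxc9, Hoxc10 and Hoxc11 stood at 6.83, 7.13 and 6.77 CPM per kb, Hoxc12 fell back to 1.40, and Hoxc13 was highest of the cluster at 12.6. The dip at Hoxc12 therefore lay between a pair of better read neighbours.

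The Hoxb cluster has no genes numbered 10 to 12. Hoxb13 had 13.4 CPM per kb, the highest level of all members, Hoxb9 had 3.27, and the members from Hoxb2 to Hoxb8 had between 0.0109 and 0.837. In the Hoxa cluster, Hoxa13 and Hoxa10 had 2.48 and 2.12 CPM per kb, whereas Hoxa9 and Hoxa11, on either side of Hoxa10, had 0.577 and 0.228. The highest Hoxd member was Hoxd8, at 0.669 CPM per kb, and Hoxd13 had 0.261. The order of all 8 members with at least 100 reads was Hoxb13, Hoxc13, Hoxc10, Hoxc9, Hoxc11, Hoxb9, Hoxa13 and Hoxa10. With 1 sample per genotype there is no replicate spread by which neighbours in this order could be told apart. The C1 high-throughput protocol reads transcripts near their 3′ ends, which makes a level per kilobase of exon an approximation.

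Within a cell, Hox reads were sparse. Each single member was at 0 reads in most cells, so its median over all cells of either genotype was 0, and the spread is given over the cells that held a read. Reads are copies made by PCR and were not collapsed to molecules. Several reads of a gene in a cell can stem from 1 molecule, and intervals on summed reads are then too narrow. The share of cells with a read is less affected by this. It still depends on depth, and was therefore also computed after each cell was thinned at random to 20000 reads, leaving out 2 WT and 5 Mkx-/- cells with fewer reads.

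Among the genes of number 13, Hoxc13, known for its part in hair, nails and the tail skeleton, was detected most widely. It had 862 reads in 23.5% of all cells. In WT cells, 55 of 227 held a read (24.2%, 18.8 to 30.3), and their levels ran from 9.14 through a median of 87.9 to 1255 CPM. In Mkx-/- cells, 51 of 224 held a read (22.8%, 17.4 to 28.8), with levels of 11.9 to 599 CPM and a median of 66.5. The ranges of the genotypes overlapped over nearly their whole length, and the thinned shares were 18.2% and 18.3%.

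Hoxb13, whose loss in mice leads to overgrowth of the tail, had 822 reads in 60 cells. In WT, 31 cells held a read (13.7%), at 6.96 to 1362 CPM with a median of 114.5. In Mkx-/-, 29 cells held a read (12.9%), at 9.23 to 737 CPM with a median of 135.1. Hoxb13 thus came close to Hoxc13 in reads while being found in fewer cells.

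Hoxa13 and Hoxd13 pattern digits and genitalia. Hoxa13 was read in 23 cells, 13 WT and 10 Mkx-/-, and 1 WT cell at 1460 CPM held 40.8% of the WT reads. Hoxd13 had 18 reads in 3 cells. At least 1 gene of number 13 was read in 87 WT and 81 Mkx-/- cells, of which 85 held a read of Hoxc13 alone, 44 of Hoxb13 alone and 15 of Hoxa13 alone. Only 22 cells held reads of 2 or more genes of number 13. The cells with a read of number 13 had a median of 59945 reads and the others 50363.

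Of the genes numbered 9 to 11, Hoxc10 and Hoxc11 were the most widely detected. Hoxc11 had 380 reads in 35 WT and 33 Mkx-/- cells, at medians of 55.4 and 60.1 CPM (highest cells 491 and 301). Hoxc10, known for its part in lumbar motor neurons, had 378 reads in 30 WT and 29 Mkx-/- cells, at medians of 58 and 53 CPM (highest cells 482 and 489). For both genes the ranges of the genotypes overlapped and the number of cells differed by 1 or 2.

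Hoxa10, which patterns the lumbar region and the uterus, was read in 16 WT and 13 Mkx-/- cells, at medians of 107.3 and 50.1 CPM. Hoxb9 was concentrated in few cells, with 234 reads in 8 WT and 12 Mkx-/- cells, at medians of 165.3 and 101.5 CPM. Hoxc9, a gene of the thoracic level, had 461 reads, in 13 WT cells and, for 347 of them, in 24 Mkx-/- cells. Its level ran from 13.4 to 314 CPM in WT cells and, among Mkx-/- cells, from 3.39 to 3419 CPM, where the median of 32.8 CPM lay below the WT median of 72.4. The highest Mkx-/- cell held 44.1% of the Mkx-/- reads of Hoxc9.

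**Figure D2:**
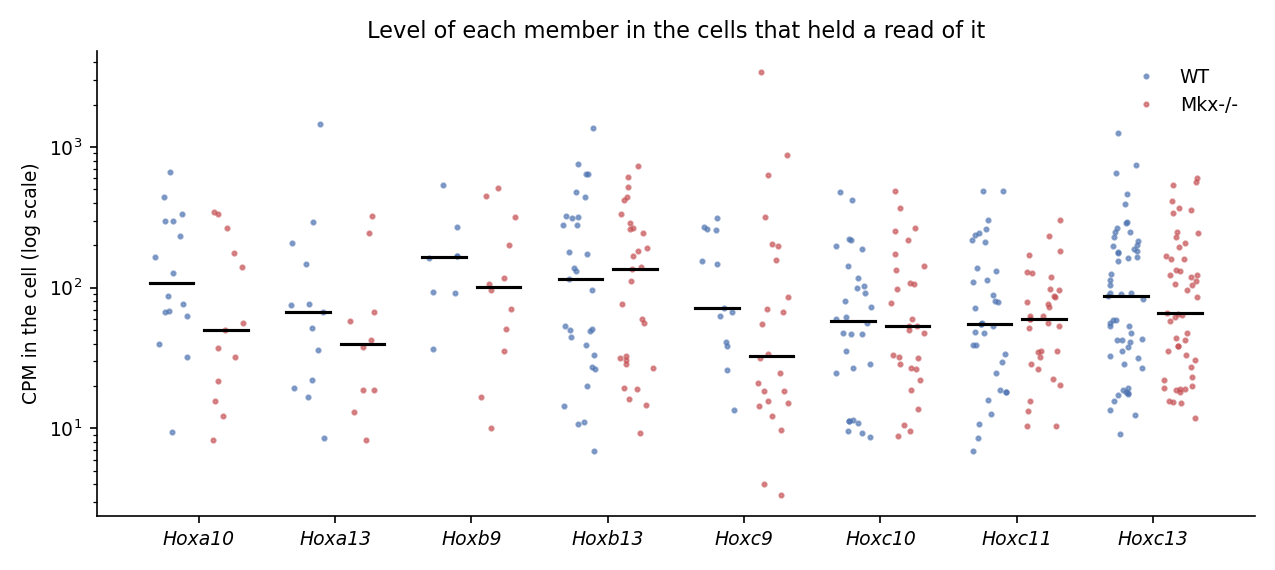
Level of the 8 Hox members with at least 100 reads in each cell that held a read, in CPM of that cell on a log axis, with 1 point per cell (WT blue, Mkx-/- red) and a black line at the median. The ranges of the genotypes overlap for every member, and the highest point is the Mkx-/- cell at 3419 CPM of Hoxc9.

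The number of reads per cell with a read differed between members. Over the 6892 genes with 100 to 1000 reads, the median number of reads per cell with a read was 7.87 (quartiles 6.08 and 9.75). Hoxb13, Hoxc9 and Hoxb9 lay above the upper quartile, at 13.7, 12.5 and 11.7 reads per such cell. Hoxc11 lay below the lower quartile at 5.59, and Hoxa10, Hoxa13, Hoxc10 and Hoxc13 lay between the quartiles. The comparison was not matched on total reads, which were near the top of this range for Hoxb13 and Hoxc13.

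**Figure D3:**
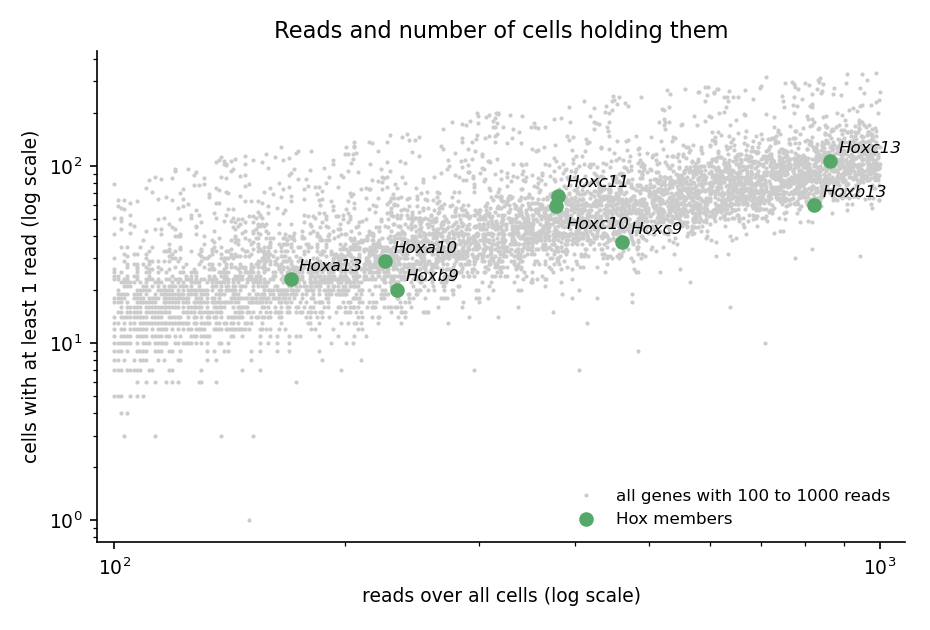
Number of cells with at least 1 read against reads over all 451 cells, both on log axes, for the 6892 genes with 100 to 1000 reads (grey) and the 8 Hox members among them (green). Hoxb13, with 822 reads in 60 cells, lies in fewer cells than Hoxc13, with 862 reads in 23.5% of cells.

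Most cells held a Hox read, but few held several members. Of the WT cells 70.5% held a read of any member, and of the Mkx-/- cells 66.5%, with shares of 60% and 56.6% after thinning. The summed Hox level of a cell had a median of 58.3 CPM and a highest value of 2026 CPM in WT, against 47.2 and 4491 CPM in Mkx-/- cells. Reads of 2 or more members were held by 30.8% of the WT cells, against 29% of the Mkx-/- cells, and of 3 or more by 11.5% and 10.7%. The WT cell with the most members, 9, was also the WT cell with the most reads, 335813. Cells with a Hox read had a median of 58998 reads and cells without one 45044.

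Neighbours in the Hoxc cluster were found together at modest rates. Hoxc11 and Hoxc13 were both read in 23 cells, which was 33.8% of the cells with Hoxc11, and Hoxc13 was read in 21.7% of the cells without Hoxc11. For Hoxc10 and Hoxc11 the overlap was 13 cells, 22% of the cells with Hoxc10, against 14% of the cells without it. Hoxb13 and Hoxc13 shared 15 cells, 25% of the Hoxb13 cells, where 23.3% of the other cells held Hoxc13. Hoxc9 and Hoxc10, although adjacent, shared 2 cells, and 5.41% of the Hoxc9 cells held Hoxc10 against 13.8% of the others. The cells in which both genes of a pair were read were deep, with medians from 59791 to 69983 reads over these 4 pairs.

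The anterior members were read rarely. Of the 25 members with 1 to 99 reads, 18 had a number of 8 or lower, and 7 of the 25 were read in a single cell. They had a median of 18 reads, with 430 reads in WT and 303 in Mkx-/- cells in all. The most posterior of them was Hoxd13. Hoxc8, with 99 reads in 16 cells, Hoxb7, with 95 in 8, and Hoxb4, with 75 in 17, held the most reads among them, and these 3 genes were singled out after their values were seen. Hoxb3 had 42 reads, all in 1 Mkx-/- cell. Hoxa2, Hoxa4, Hoxb1, Hoxd1, Hoxd4 and Hoxd12 were at 0 reads in all 451 cells. This allows a read in up to 1.32% of WT and 1.34% of Mkx-/- cells when the limit is set at 3 cells. By the exact interval it allows up to 1.61% and 1.63%. These limits hold for reads as counted, and Hoxd4 shares 67.4% of its exon bases with Hoxd3.

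Cells with an anterior read did not lack posterior ones. A read of numbers 1 to 8 was found in 77 cells, and 46 of these, 59.7%, also held a read of numbers 9 to 13. In cells without a read of numbers 1 to 8, the share with a read of numbers 9 to 13 was 62%. Several anterior members overlap a neighbour or an antisense gene in their exons in the annotation, as Hoxb7 and Hoxb8 do over 1069 bases and Hoxd3 and Hoxd4 over 1725 bases of the latter. Hoxa11 shares 38.6% of its exon bases with an antisense gene. The strand used in counting is not given in the sources used here, so a gene and its antisense neighbour cannot be fully told apart. Hoxb7 and Hoxb8 lie on the same strand, as do Hoxd3 and Hoxd4, so a strand setting could not separate them. How reads in exons shared by neighbours were counted is not given either. Whether this affected the count of Hoxd4 was not tested.

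Of 15 listed noncoding RNAs of the clusters, 9 had a read and 2, Hotair and Hoxa11os, had at least 100 reads. Hottip, which lies beside Hoxa13, had 1 read, and the more anterior Hoxb3os and Hoxd3os1 had 19 and 18. Hotair, a noncoding RNA made from the Hoxc cluster in the opposite direction to the Hoxc genes, had 312 reads, in 20 WT and 16 Mkx-/- cells, and a log2 ratio of Mkx-/- to WT of -0.93 (-1.28 to -0.59). It passed 2-fold, at -1.27, once the cell with most of its reads was dropped on each side. Its levels ran from 5.96 to 789.5 CPM among the WT cells with a read and from 16.1 to 397 CPM among the Mkx-/- ones. Hoxa11os, the antisense partner of Hoxa11, was read in 16 cells, against the 17 reads in 3 cells counted for Hoxa11 itself. The 6 microRNA symbols of the clusters were at 0 reads.

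The genotypes were compared next, since the study asks what changes in tendon cells without Mkx. Mkx itself was read in 52 WT and 29 Mkx-/- cells, at summed levels of 33.8 against 15.5 CPM. The direction followed the labels, but cells labelled Mkx-/- still held Mkx reads. The summed Hox level was 155.3 CPM in WT (148.8 to 162.1, exact 95% Poisson interval) and 151.9 CPM in Mkx-/- cells (145.6 to 158.5), giving a log2 ratio of -0.03 (-0.12 to 0.06) beside a median of 0.05 over the 10963 genes with at least 100 reads. It ranged from -0.21 with thinned cells to 0.06 over cells with under 5000 detected genes. The share of cells with a read of numbers 9 to 13 was 62.1% for WT, against 61.2% for Mkx-/- (difference -0.954 percentage points, -9.85 to 7.96). After thinning the shares were 51.6% and 51.1%.

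Of the 8 members with at least 100 reads, Hoxc9 was at least 2-fold higher in Mkx-/- cells and none was at least 2-fold lower. Over all 10963 genes, 7.23% were at least 2-fold higher and 6.12% at least 2-fold lower. The level of Hoxc9 was 8.36 CPM in WT (6.90 to 10) and 24.5 CPM in Mkx-/- cells (22 to 27.3), giving a log2 ratio of 1.55 (1.24 to 1.87). After the cell with most Hoxc9 reads was dropped on each side it was 1.25. Of the WT cells 5.73% held a Hoxc9 read, against 10.7% of the Mkx-/- cells, a difference of 4.99 percentage points whose interval of -0.134 to 10.3 includes 0, and the thinned shares were 4.89% and 6.39%.

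The other 7 members had log2 ratios from -0.68 for Hoxa10 to 0.22 for Hoxb9. Hoxb13 stood at 0.02 (-0.18 to 0.22), Hoxc10 at 0.04 (-0.26 to 0.34), Hoxc11 at -0.1 and Hoxc13 at -0.18. Hoxa13 stood at -0.67 (-1.14 to -0.22). For each of the 7 the interval of the difference in the share of cells includes 0. With thinned cells Hoxa10 and Hoxa13 reached -1.20 and -1.85 and passed 2-fold as well.

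Between the cluster letters, the Hoxb and Hoxc sums had log2 ratios of 0.11 (-0.05 to 0.26) and 0.07 (-0.05 to 0.19), while the Hoxa sum stood at -0.59 (-0.86 to -0.32). Hoxd reads were found in 12 WT and 5 Mkx-/- cells. Reads of Hoxd9 to Hoxd13 were found in 8 WT cells and 1 Mkx-/- cell, which differ by -3.08 percentage points (-6.37 to -0.406) and rest on 9 cells in all, with thinned shares of 2.22% and 0.457%.

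For numbers 4 to 8 and for number 9, the interval of the unthinned difference in the share of cells left out 0. These sets were picked from all those looked at, and with 1 sample per genotype the intervals hold no spread between animals. No interval was computed for their thinned shares, which lay closer together. A read of numbers 4 to 8 was found in 45 WT cells (19.8%) and 26 Mkx-/- cells (11.6%), which differ by -8.22 percentage points (-14.9 to -1.48), with thinned shares of 13.3% and 9.13%. Number 9 was read in 10.6% of the WT cells against 17.9% of the Mkx-/- cells (7.28 points, 0.822 to 13.8), but in 9.78% and 11.4% after thinning. For every other single number the interval of the difference includes 0.

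**Figure D4:**
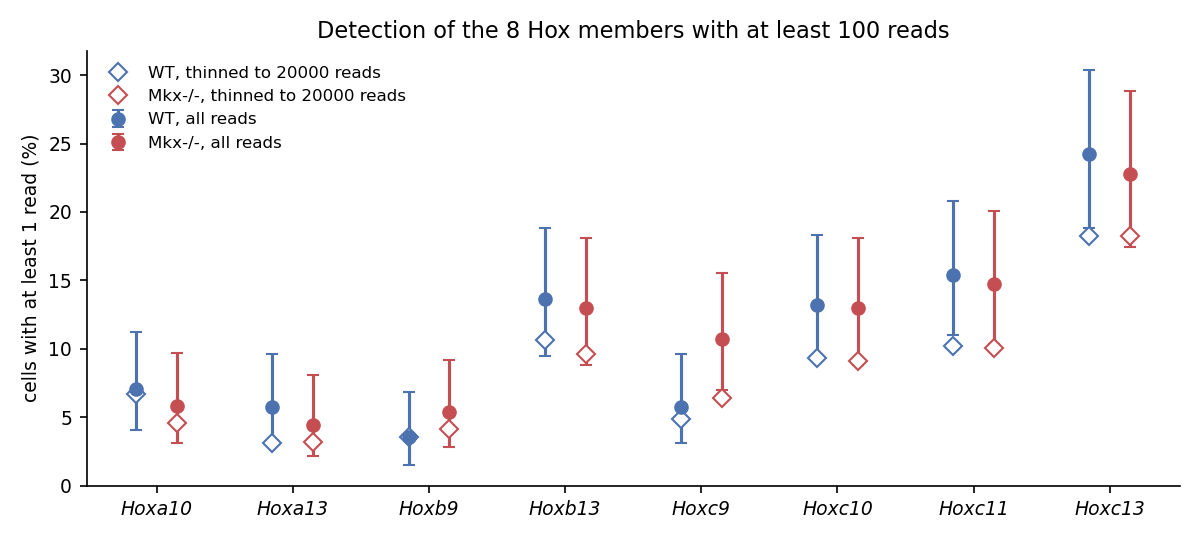
Share of cells with at least 1 read of each of the 8 Hox members, in percent of all cells of a genotype (filled circles, bars are exact 95% binomial intervals) and of cells thinned to 20000 reads (open diamonds). The bars of WT (blue) and Mkx-/- (red) overlap for every member, and Hoxc13 is highest at 24.2% and 22.8%.

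To see whether Hox levels followed the state of the cells, cells were grouped by clusters of their whole profiles. A cluster like tendon progenitor cells (TPC-like; Cd44, Thy1, Ly6a, Fstl1 and Tppp3) held 45.8% of the WT cells and 43.3% of the Mkx-/- cells, and a cluster like tenocytes (TC-like; Col11a2, Col1a1, Col1a2, Sparc, Tnmd and Fmod) held 32.6% and 36.2%. Another cluster, led by Mmp10 and Mmp3, held 21.6% and 20.5% and stayed unnamed. Both tenoblast markers, Itm2a and Lgals3, were higher in it than in the other cells, but a name was given only from 3 or more markers. All 5 tendon lineage markers (Scx, Mkx, Tnmd, Egr1 and Thbs4) were read, and 256 of the 451 cells held reads of 3 or more of them. The TC-like cluster was also led by the cartilage genes Ucma and Col2a1. Only 3 of the 1691 variable genes used for clustering were Hox members. Leaving them out put all 451 cells in the same clusters, a result that so small a change could hardly alter. The TC-like cells were deeper, with medians of 82854 WT and 72866 Mkx-/- reads against 43978 and 48779 in TPC-like cells.

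Posterior Hox reads were found in all 3 clusters of both genotypes. In WT, a read of numbers 9 to 13 was found in 55.8% of TPC-like cells, 55.1% of the unnamed cluster and 75.7% of TC-like cells. In Mkx-/- the shares were 57.7%, 54.3% and 69.1%. After thinning, TC-like minus TPC-like was 17.9 percentage points in WT (2.99 to 31.6) and 8.56 in Mkx-/- cells (-6.19 to 22.8). By summed reads, TC-like cells differed from TPC-like cells by a log2 ratio of -0.01 (-0.15 to 0.12) for WT, against -0.46 (-0.6 to -0.32) for Mkx-/-. The medians over all genes were -0.67 and -0.46. The 50 genes with most reads held 21.2% of TPC-like and 45.6% of TC-like reads in WT, and 21.3% and 38% in Mkx-/- cells.

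Of the leading genes of number 13, Hoxb13 was read in 7.69% of TPC-like and 25.7% of TC-like WT cells, and in 11.3% and 16% of those cells in Mkx-/-. After thinning the difference was 13.1 percentage points in WT (3.45 to 23.9) and 3.58 in Mkx-/- cells (-5.27 to 13.1). Its level was 21.1 and 35.3 CPM in TPC-like and TC-like WT cells, and 26.1 and 34.7 CPM in Mkx-/- cells.

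The summed level of Hoxc13 was lower in TC-like cells, as was that of the median gene. In WT, its level went from 43.8 CPM among TPC-like to 23 CPM among TC-like cells, a log2 ratio of -0.93 (-1.24 to -0.62), and in Mkx-/- from 45.3 to 16.1 CPM, with a log2 ratio of -1.49 (-1.83 to -1.16). The thinned shares of cells differed by -10.2 (-20.7 to 1.5) and -11.3 points (-22.4 to 0.325), and both intervals include 0. Leaving the 50 genes with most reads out of the library size raises every log2 ratio of this contrast by 0.53 in WT and 0.34 in Mkx-/- cells, beside medians over all genes of -0.67 and -0.46.

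**Figure D5:**
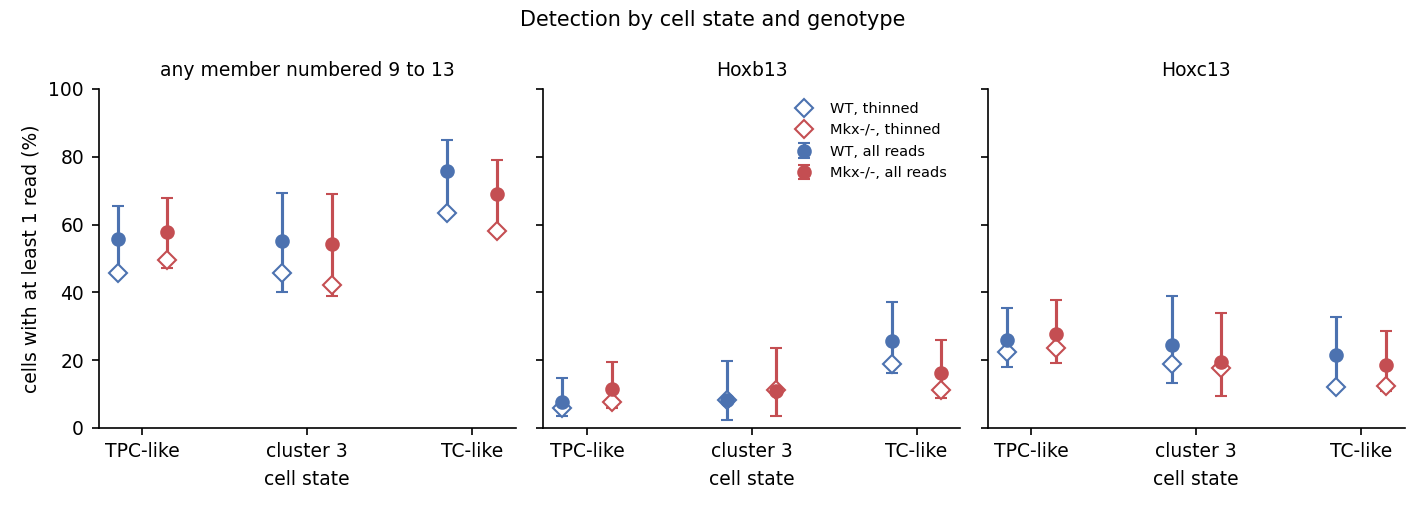
Share of cells with at least 1 read, in percent, by cell state for any member numbered 9 to 13 (left), Hoxb13 (middle) and Hoxc13 (right), in WT (blue) and Mkx-/- cells (red). Filled circles with exact 95% binomial intervals use all reads and open diamonds cells thinned to 20000 reads, and Hoxb13 runs from 7.69% in TPC-like to 25.7% in TC-like WT cells.

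Of the 8 members with at least 100 reads, 2 were at least 2-fold higher in TC-like than in TPC-like WT cells, against 9.87% of all genes, and 0 were at least 2-fold lower, against 36.4%. These were Hoxa13, at a log2 ratio of 2.5 (1.14 to 4.21), and Hoxb9, at 2.41 (1.59 to 3.33). In Mkx-/- cells 1 was at least 2-fold higher, against 10.2% of all genes, and 2 were at least 2-fold lower, against 28.6%. Hoxa10 was the higher one, at 1.16, and Hoxa13, at -1.25, and Hoxc13 were the lower ones. Hoxa13 thus had opposite signs in the genotypes, but its reads lay in 6 TPC-like and 9 TC-like cells in all. Hoxb9 was read in 1 TPC-like and 7 of 74 TC-like WT cells, and in 3 of 97 and 6 of 81 Mkx-/- cells. The difference between genotypes in these ratios was not tested.

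In the unnamed cluster, the Mkx-/- level of Hoxc9 was 73.9 CPM against 7.41 CPM in WT, with 95.6% of the Mkx-/- reads in 1 cell and a read in 4 of 46 and 3 of 49 cells. The log2 ratio of Hoxc9 between genotypes was 1.59 (1.02 to 2.18) among TPC-like cells, against 0.28 (-0.21 to 0.78) among TC-like cells. Among TPC-like cells its reads lay in 3 WT and 7 Mkx-/- cells, of which a pair with 42 and 43 reads held most of the Mkx-/- reads. The share of TPC-like cells with a Hoxc9 read differed by 4.33 points (-2.08 to 11.5), which includes 0. The Hoxb sum had a log2 ratio between genotypes of 1.31 among TPC-like cells, against -0.45 among TC-like cells. Of the 344 Mkx-/- reads among TPC-like cells, 42 were of Hoxb3 in 1 cell and 58 of Hoxb7 in 3 cells, and the share of TPC-like cells with a Hoxb read differed by 7.43 points (-3.84 to 18.7), an interval that includes 0. The share of TC-like cells that held a Hoxb read was 41.9% for WT, against 23.5% for Mkx-/- (-18.4 points, -32.3 to -3.68). This share is over all reads, and the WT TC-like cells were deeper, with medians of 82854 against 72866 reads. After thinning, TC-like minus TPC-like for a Hoxb read was 21.8 points in WT (9.63 to 34). In Mkx-/- cells it was -4.38 points (-15.7 to 7.38). No interval was computed for the thinned difference between genotypes. Numbers 1 to 8 had a log2 ratio of -2.11 in TC-like cells, but 12 of 74 WT and 10 of 81 Mkx-/- cells held a read. Their share of cells differed most in the unnamed cluster, by -18 points (-32.2 to -3.19). It differed by -3.87 (-15.3 to 7.27) in TC-like and -4.59 (-15.5 to 6.56) in TPC-like cells.

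Other cell types of a tail digest were looked for by their markers. Cells with reads of 3 or more of 6 markers of endothelial, blood, mural, muscle, Schwann or skin epithelial cells numbered 17 in WT and 14 in Mkx-/-, and held 13.6% and 11.3% of the Hox reads. Without them the summed Hox log2 ratio was -0.01, that of Hoxb9 was -0.57 and that of Hoxc13 was -0.57, and Hoxc9 was again the single member past 2-fold. The 6 Schwann markers summed to 36.8 CPM over TPC-like cells, against 331 over TC-like cells, and the 5 cartilage markers, of which Matn1 was at 0, to 7.10 and 305 CPM. The mural markers summed to 7.20 and 94.5 CPM. Other lists were higher over TPC-like cells, with blood markers at 253 against 49.6 CPM and endothelial markers at 96.1 against 49. Skin epithelial markers stood at 87 against 38.9 CPM and muscle markers at 3.06 against 0.300. Of the 6 skin epithelial markers, Krt5 and Krt15 were at 0 in all cells, but the other 4, Krt14, Krt10, Perp and Dsp, were read. Summed over all WT cells this list stood at 44.7 CPM. Over all Mkx-/- cells it stood at 86, and the highest of these cells had 2453.5. No cell held reads of 3 or more of the 6. The part of other cell types in the differences between states was not tested.

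All 9 listed cofactors of Hox proteins had a read. Of these 9 genes of the TALE class, which bind DNA together with Hox proteins, 6 had at least 100 reads. Their median log2 ratio was -0.09, beside 0.05 over all genes. In Mkx-/- cells 0 were at least 2-fold higher and 1 at least 2-fold lower. Over all 10963 genes with at least 100 reads these shares were 7.23% and 6.12%, which also apply to the lists below. Pknox1 (26 and 35.6 CPM in WT and Mkx-/-) and Pbx3 (29.2 and 27.2 CPM) held the most reads. The lower one was Meis3, with a read in 27 WT and 12 Mkx-/- cells and a log2 ratio of -1.05 (-1.4 to -0.7). Meis3 went from 20.7 CPM among TPC-like to 9.76 CPM among TC-like WT cells, and from 14 to 0 CPM among Mkx-/- cells.

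Polycomb and Trithorax proteins keep Hox genes off or on through cell division. Of 22 such genes, 18 had at least 100 reads, with a median log2 ratio of 0.11. Of the 18, 0 passed 2-fold in either direction, beside 7.23% higher and 6.12% lower over all genes. Kmt2a, a methyltransferase that keeps Hox genes active, stood at 109.3 CPM in WT, against 112.8 in Mkx-/- cells, and Kdm6b, which removes the Polycomb mark, at 58.1 and 61.1 CPM. Cbx2 was at 0 reads.

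Of 12 genes that set caudal position in the embryo, 3 had at least 100 reads and Cdx2, T, Wnt3a, Fgf8 and Lin28a were at 0. Cyp26a1, which breaks down retinoic acid and guards the tail bud from it, had 856 reads. Its level was 14.9 CPM for WT, against 46.2 for Mkx-/-, a log2 ratio of 1.63 (1.4 to 1.87), with a read in 11.9% and 21% of cells (9.09 points, 2.24 to 15.9). Its level in WT was 31.6 CPM in TC-like cells, 0.195 in TPC-like cells and 0.463 in the unnamed cluster. Of the TC-like cells, 33.8% held a read in WT and 43.2% in Mkx-/-, against 0.962% and 8.25% of TPC-like cells. Gdf11, a secreted factor that sets the change from trunk to tail, was at least 2-fold lower in Mkx-/- cells, at 14.5 against 5.16 CPM (log2 ratio -1.49, -1.89 to -1.09), with a read in 9.25% and 6.25% of cells (-3.00 points, -8.12 to 2.05, which includes 0). Nr6a1, a receptor of the trunk region, stood at 26 and 25.3 CPM and was higher in TPC-like cells of both genotypes, by log2 ratios of TC-like to TPC-like of -4.61 and -1.66.

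Of 19 limb and other position homeobox and T-box genes, 5 had at least 100 reads, with a median log2 ratio of 0.24. Tbx18 was at least 2-fold higher in Mkx-/- cells, with 28 CPM there against 10.6 in WT (log2 ratio 1.4, 1.12 to 1.68). It was read in 7.49% of WT and 19.6% of Mkx-/- cells (12.2 points, 5.89 to 18.5). Its WT and Mkx-/- levels were 18.6 and 33.9 CPM among TPC-like cells, and 1.89 and 20.5 CPM among TC-like cells. The shares given for Tbx18, Cyp26a1 and Gdf11 are over all reads, without thinning. Mkx-/- cells were deeper, with a median of 56121 reads against 51788. Meox2, a homeobox gene of muscle and axial connective tissue, held the most reads, at 39 and 41.2 CPM. The limb genes Pitx1, Tbx4 and Tbx5 had 2, 52 and 22 reads in all. The gene lists of these 4 groups were not chosen independently of earlier results of these cells.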

How the data were processed

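For every cell, the authors deposited unscaled counts of reads by gene symbol. Per their methods, reads were cleaned, mapped with bowtie2 and counted with featureCounts. The methods name mm9 and the submitters' processing notes name mm10, so positions here are those of GENCODE M1 on NCBIM37 (mm9) and not necessarily the intervals counted. Counts were summed over the cells of a genotype or cluster and scaled to all reads (CPM). Shares of cells have exact Clopper-Pearson, sums exact Poisson, ratios exact conditional binomial and differences of shares Newcombe intervals, all at 95%. For a ratio, a sum of 0 was set to 3 reads. All cells were clustered with Seurat 5.3.0 (R 4.3.3; 1000 variable genes from each genotype, joined, 4 dimensions, resolution 0.4) by anchors in place of the older alignment. No doublet caller was run. No 2 cells had identical counts, and 0 columns were unused. Ratios and thinning were tested on simulated data (Python 3.11.15, scipy 1.17.1). Named were all members with at least 100 reads, the extremes of the others (1 is not reported here), list genes past 2-fold, the 2 list genes with most reads, and Mkx. Members and lists were chosen with earlier results of these data known.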

Additional observations from a re-analysis of the deposited data

How the results depend on the processing

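The summed Hox log2 ratio of Mkx-/- to WT (-0.03) was -0.14 as a mean of per-cell CPM, -0.21 with cells thinned to 20000 reads, 0.059 over cells with under 5000 genes and -0.12 after dropping the cell with most Hox reads on each side. TMM and median ratio scaling moved it by less than its interval. The count of members past 2-fold (1) became 2 by per-cell CPM and 3 with thinned cells. It became 7 of 20 members with at least 20 reads (2 higher and 5 lower, against 13% and 14.4% of all genes) and 6 of 39 without a filter (2 higher and 4 lower, against 3.18% and 3.9%). The share of Hox reads from numbers 9 to 13 was 86.9% in WT and 91.3% in Mkx-/- per kilobase of exon, and in Mkx-/- 87.5% by per-cell CPM and 86.9% with thinned cells. The TC-like to TPC-like log2 ratio in WT was 0.15 by per-cell CPM and 0.24 with thinned cells. Leaving the 50 genes with most reads out of the library size made it 0.52 in WT and -0.12 in Mkx-/-, a shift of every gene by 0.53 and 0.34. The share of cells with a read of numbers 9 to 13 (51.6% in WT and 51.1% in Mkx-/- at 20000 reads) was 62.3% and 61.1% at 40000 reads, 62.1% and 61.2% without thinning, and 39.1% and 34.2% where 2 reads were needed. The expected share over all draws, an alternative chosen after seeing the data, was 52% and 50.1%. The cause of these moves was not tested. For the 8 members, 45 of 56 alternative log2 ratios stayed within the interval of the main value, 11 moved out of it, and 49 kept their sign.

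No paired analysis was possible because each genotype was 1 sample. No replicate was left out for the same reason. The detection of single members depends on depth, and at 20000 reads a cell most cells held no read of any given one. This was also so with all reads. Whether such cells lacked the transcript or it was missed was not tested.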
